A study of Mus musculus with 60 samples.

Results

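The genes described here are the 10 mouse genes that are most often read as feedback targets of canonical Wnt signaling: Axin2, Lef1, Tcf7, Nkd1, Nkd2, Notum, Lgr5, Sp5, Znrf3 and Rnf43. The list was fixed by gene name, with earlier results of these data known, and all 10 were found once among the 56980 gene identifiers of each of 2 RNA sequencing count tables from mouse fibroblasts. In canonical Wnt signaling, a destruction complex built on Axin and Apc holds β-catenin for phosphorylation by Gsk3 and degradation. When a Wnt ligand binds a Frizzled and Lrp receptor pair, or when Gsk3 is inhibited, β-catenin builds up, enters the nucleus and binds Tcf and Lef factors at target genes. Many of these targets encode inhibitors of the pathway itself, so that their transcripts serve as a readout of signaling and as a brake on it. CHIR99021 is an inhibitor of Gsk3, so it acts below the ligand and the receptor.

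The study asked how short reprogramming with Oct4, Sox2, Klf4 and Myc, alone or with 2 small molecules, changed fibroblasts with a DNA repair defect. The first table held 36 libraries of tail tip fibroblasts, in 12 groups of 3. D/KO cells carried 1 truncated and 1 deleted allele of the repair gene Ercc1, with the doxycycline-inducible 4Fj cassette and rtTA (label 4FJ_ERCC1_(d/-)), and came from male mice of 8 weeks. WT cells were labelled 4FJ_(+/-)_OCT4-GFP and came from female mice of 22 weeks, so Ercc1 genotype, sex, age, reporter and mouse line cannot be told apart between the lines. Each line was collected at days 0, 2 and 4 of doxycycline at 2 µg/ml, with or without VC, which is ascorbic acid (vitamin C) at 50 µg/ml together with CHIR99021 at 3 µM. Because both agents were always added together, an effect of CHIR99021 cannot be told apart from one of ascorbic acid. The day 0 groups received no doxycycline, so VC was there the only agent that differed, and how long it had been present at day 0 was not given in the sources used here.

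The second table held 24 libraries in 8 groups of 3. Ercc1 d/- fibroblasts without the cassette, from female mice of 4 weeks, were left as controls or were given Repsox at 0.1 µM, Vactosertib at 0.1 µM or A83-01 at 1 µM, all inhibitors of the TGFb type I receptor, of which Vactosertib is described by the study as also acting on a BMP type I receptor, or DMH-1 at 1 µM, an inhibitor of the BMP type I receptors, for 3 days. No cells in that table received CHIR99021. Its other 9 libraries came from untreated WT mice (Ercc1 +/+, female, 14 weeks), in a tail tip group and a skin group, and from the WT 4F line (4FJ_(+/-)_OCT4-GFP, female, 22 weeks) with the treatment label TGFB, which the labels do not explain. The labels do not say that the 3 libraries of a group came from separate animals or cultures, so p-values measure only the spread between these libraries, which may be technical.

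Total counts ran from 16538374 to 18484951 per library in the reprogramming table and from 17102639 to 30599138 in the inhibitor table. The expression of Ercc1 ran from 8.03 to 18.6 CPM (read counts as a rate of the TMM-scaled library total) in the D/KO libraries of the reprogramming table and from 16.8 to 29.1 CPM in its WT libraries. In the inhibitor table the ranges overlapped, at 13.2 to 23.5 CPM in D/KO and 13.3 to 47.7 CPM in WT libraries, and the mean of the D/KO controls (20.6 CPM) lay above that of the WT tail tip controls (18 CPM). Counts per gene do not show which part of Ercc1 a transcript holds, and a truncated allele can still be counted, so this level does not check the D/KO label. All 10 fibroblast markers checked were detected in every library, with a summed level of 34946 to 256112 CPM in the reprogramming table. The marker sums moved with VC. The fibroblast sum went from between 84929 and 123774 to between 185692 and 256112 CPM in D/KO cells at day 0 and from between 54800 and 56571 to between 158198 and 174160 CPM in WT cells, was higher with VC in both lines at day 2 and in WT cells at day 4, and was lower with VC in D/KO cells at day 4 (34946 to 36018 against 41457 to 42747 CPM). The 9 keratinocyte markers had a higher sum with VC, without overlap, in both lines at all 3 days, in D/KO cells from 3.87 to 5.41 CPM to 8.56 to 14.2 CPM at day 0, from 33.5 to 43.6 CPM to 161 to 195 CPM at day 2 and from 67.8 to 81.8 CPM to 450 to 572 CPM at day 4. In single libraries of these cells Krt14, Dsp and Cdh1 reached up to 421, 108 and 48.4 CPM, and the others of the 9 at most 5.0 CPM. Krt5, Krt15 and Epcam reached at most 0.668, 0.118 and 0.845 CPM. The 5 endothelial markers had a lower sum with VC in D/KO cells at day 0 (215 to 256 against 585 to 709 CPM) and day 2 (198 to 222 against 467 to 546 CPM) and a higher one at day 4 (383 to 514 against 327 to 345 CPM), and in WT cells they were lower at day 0 (4.73 to 7.07 against 14.5 to 17.3 CPM) and higher at day 2 (94.6 to 102 against 61.7 to 66.4 CPM) and day 4 (98 to 116 against 95.3 to 95.7 CPM). The 6 immune markers had a lower sum with VC, without overlap, in both lines at days 2 and 4 (at day 4, 2.45 to 2.91 against 6.48 to 6.84 CPM in D/KO and 41.5 to 44.2 against 53.5 to 67.5 CPM in WT cells), and so had the 6 Schwann cell and melanocyte markers in D/KO cells at day 2 (1.48 to 2.84 against 4.52 to 6.32 CPM) and day 4 (3.06 to 4.57 against 7.71 to 9.06 CPM). The part that such cells, or a change in the cells' own type, had in the results below was not tested. In bulk RNA, fewer cells of a type and less RNA per cell cannot be told apart.

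The members were placed on GRCm39 as the count tables give them, and all are protein-coding. Axin2 lies on chromosome 11 (108811175 to 108841609, plus strand), Tcf7 on chromosome 11 (52143198 to 52174158, minus strand), Lef1 on chromosome 3 (130904120 to 131018005, plus strand) and Sp5 on chromosome 2 (70305267 to 70308073, plus strand). Nkd1 lies on chromosome 8 (89247982 to 89321512, plus strand), Nkd2 on chromosome 13 (73966653 to 73995750, minus strand) and Lgr5 on chromosome 10 (115286216 to 115423685, minus strand). The other 3 lie on chromosome 11: Notum (120544614 to 120552001, minus strand), Znrf3 (5226324 to 5394847, minus strand) and Rnf43 (87553548 to 87626365, plus strand). Antisense transcripts share part of the exons of 8 of the 10, with Notumos over 38.3% and Myadml2os over 10.4% of the exon bases of Notum, and at most 16.3% (Lef1) for the other members. The strand setting of the counting was not given, so reads of these pairs cannot be told apart.

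Tcf and Lef factors bind short sites with a core of CTTTG. The 7-base words CTTTGAA and CTTTGAT, as well as CTTTGTA and CTTTGTT, were looked for on both strands of the RefSeq promoter windows (GRCm38.p6, 250 bases before to 50 after each start), which held entries for 7 members. Of all 32851 windows of the same 300 bases, 16.9% held at least 1 of the words. Sp5 held 2 and 1 of the 4 Lef1 windows held 1, and none was found in the windows of Axin2, Tcf7, Nkd1, Nkd2 and Rnf43. The windows with a match are shown beside that of Axin2, which had none and the largest estimated rise with VC at day 0. They are written 5′ to 3′ on the gene's strand, end before the first annotated exon base and carry each match in capitals, and each was found once in GRCm39.
Sp5, chr2:70305017-70305266, plus strand: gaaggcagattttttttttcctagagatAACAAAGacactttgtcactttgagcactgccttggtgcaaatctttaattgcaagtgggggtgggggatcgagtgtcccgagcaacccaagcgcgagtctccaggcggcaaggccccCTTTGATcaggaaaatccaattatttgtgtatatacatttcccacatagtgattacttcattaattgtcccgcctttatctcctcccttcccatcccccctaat
Lef1 (a start inside the gene), chr3:130949693-130949942, plus strand: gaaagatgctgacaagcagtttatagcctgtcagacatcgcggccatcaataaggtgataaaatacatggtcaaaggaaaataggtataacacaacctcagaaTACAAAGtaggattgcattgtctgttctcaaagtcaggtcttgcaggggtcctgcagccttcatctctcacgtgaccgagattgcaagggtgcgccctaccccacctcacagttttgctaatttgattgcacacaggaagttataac
Axin2, chr11:108810925-108811168, plus strand: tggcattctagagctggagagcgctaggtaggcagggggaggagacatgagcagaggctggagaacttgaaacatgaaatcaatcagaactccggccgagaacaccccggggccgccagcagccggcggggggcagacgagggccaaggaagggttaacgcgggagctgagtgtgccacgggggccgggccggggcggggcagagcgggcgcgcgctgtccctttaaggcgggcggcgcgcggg
Counted from the start site, the Sp5 matches lie at -222 (CTTTGTT, on the opposite strand) and -104 (CTTTGAT, on the gene's strand), and the Lef1 match at -147 (CTTTGTA, on the opposite strand). A match is a run of letters and not a shown binding site, and no match says nothing of sites outside the window.

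To ask how the members responded to VC, cells with VC were compared with cells without it at each day, in each line. Axin2 and Tcf7 rose in all 6 comparisons, Nkd2 rose in 4, and Nkd1 rose in 1 and fell in 4. Lef1 fell in the 3 comparisons of WT cells, Lgr5 rose in 2 and fell in 1, Notum rose in 1, Sp5 fell in 1, and Znrf3 and Rnf43 passed the test in none. A gene was called at an adjusted p under 0.05, from a fit over all 15832 genes that passed the filter on low counts, all 10 members included. Sp5 passed that filter through the D/KO cells and Rnf43 through the WT cells, and Notum passed it only through the D/KO group at day 4 with VC.

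Among D/KO cells, 5 of the 10 members rose with VC at day 0 and 1 fell, where 12.1% of all genes tested were higher and 14% were lower. At day 2, 2 rose and 1 fell, against 11.1% higher and 14.2% lower of all genes. At day 4, 4 rose, or 3 without Notum, which was tested only because it was high in that group with VC, and 2 fell, against 16.8% and 17.7%. In WT cells, 3 members rose and 1 fell at day 0, against 15.1% higher and 14.4% lower of all genes. When only the 6 libraries compared were fitted, 6 of the 8 members then tested rose. Those added were Nkd1, Lgr5 and Rnf43, whose libraries with VC all lay above those without. The share of all genes that rose or did not overlap in that fit is not given here. At day 2, 4 rose and 2 fell, against 13.5% and 13%, and at day 4, 2 rose and 2 fell, against 12% and 10.4%. The median log2 fold change over the 10 members was 1.84, 0.34 and 0.61 at days 0, 2 and 4 for the D/KO line and 0.82, 0.83 and 0.13 for the WT line. Over the 9 members without the one at or near 0 counts in that line (Rnf43 in D/KO, Sp5 in WT) it was 1.63, 0.42 and 0.72 for the first of these lines and 0.64, 0.95 and 0.17 for the second, and that of all genes ran from -0.004 to 0.03.

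**Figure D1:**
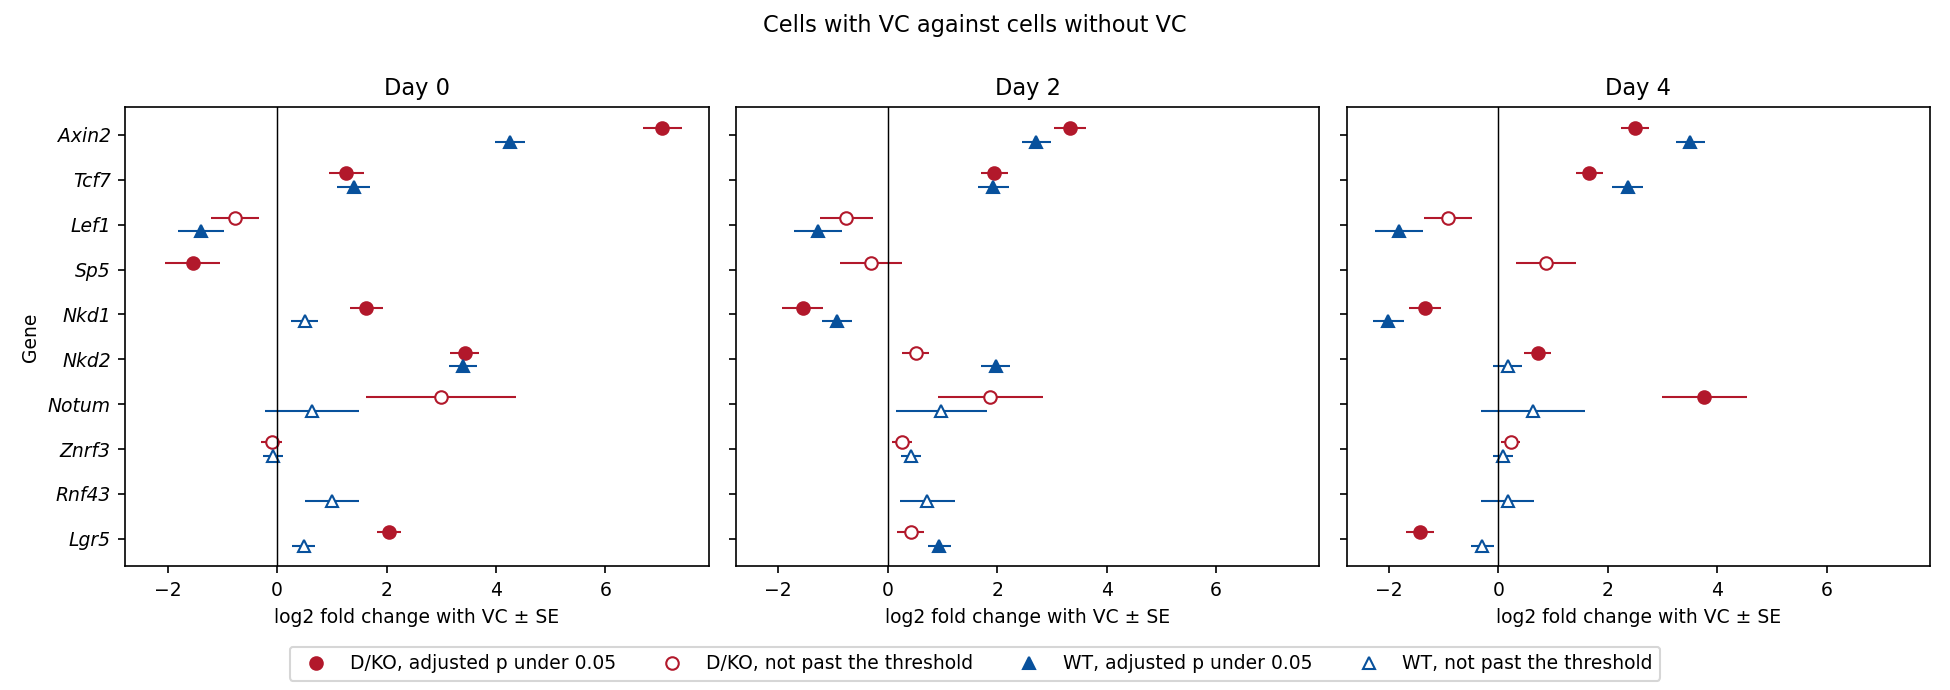
The log2 fold change with VC (x axis, ± SE) is drawn for each member (y axis) at days 0, 2 and 4, with circles for D/KO and triangles for WT cells, filled where the adjusted p was under 0.05. Axin2 and Tcf7 lie to the right of 0 in all 3 panels and Nkd1 lies to the right of 0 at day 0 and to the left at days 2 and 4. Sp5 in WT cells and Rnf43 in D/KO cells were at or near 0 counts and are not drawn.

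Axin2, the scaffold of the destruction complex, had the largest estimated rise of the 10 at day 0. In D/KO cells at day 4 that of Notum was larger. In D/KO cells at day 0 Axin2 was almost silent, with 0.129, 0.293 and 0.236 CPM (2, 5 and 4 counts). With VC it reached 33.8, 24.1 and 32.3 CPM, so that the groups were far apart. This was a log2 fold change of 7.04 ± 0.36 (SE, n = 3, adjusted p = 2.09e-17), and the ratio of pooled CPM was 137-fold, with a 95% exact interval of 76.1 to 274 that covers counting error only. In WT cells at day 0, Axin2 started higher, at 0.883, 1.34 and 1.68 CPM. It reached 25.0, 24.8 and 25.8 CPM with VC, which is within the range of the D/KO cells with VC, and the log2 fold change was 4.26 ± 0.27 (adjusted p = 2.03e-14).

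The 6 groups with VC held the 6 highest Axin2 means of the 12, and every library with VC lay above every library without. In D/KO cells at day 2 Axin2 was at 7.87, 9.05 and 13.5 CPM with VC and at 0.977, 0.754 and 1.25 CPM without (log2 3.34 ± 0.29, adjusted p = 4.33e-11). At day 4 it was at 13, 10.3 and 17.4 CPM with VC and at 1.46, 1.83 and 3.88 CPM without (2.50 ± 0.25, adjusted p = 8.68e-10). The level without VC was higher at days 2 and 4 than at day 0 in D/KO cells, while the level with VC was lower. In WT cells Axin2 was at 12.2, 12.4 and 9.66 CPM with VC at day 2, against 1.62, 1.39 and 2.20 CPM without (2.72 ± 0.27), and at 16.7, 17.7 and 19.8 CPM with VC at day 4, against 1.38, 1.80 and 1.54 CPM without (3.51 ± 0.27). Ranked by mean, the groups ran from D/KO day 0 with VC (30.1 ± 5.22 CPM, SD) over WT day 0 with VC (25.2 ± 0.53), WT day 4 with VC (18 ± 1.59), D/KO day 4 with VC (13.6 ± 3.60), WT day 2 with VC (11.4 ± 1.51) and D/KO day 2 with VC (10.1 ± 2.96) to D/KO day 4 without VC (2.39 ± 1.30) and on to D/KO day 0 (0.219 ± 0.083). Neighbours in this order overlapped in their libraries except at 3 places: between WT day 0 with VC and WT day 4 with VC, between the lowest group with VC and the highest without, and between D/KO day 2 and D/KO day 0.

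**Figure D2:**
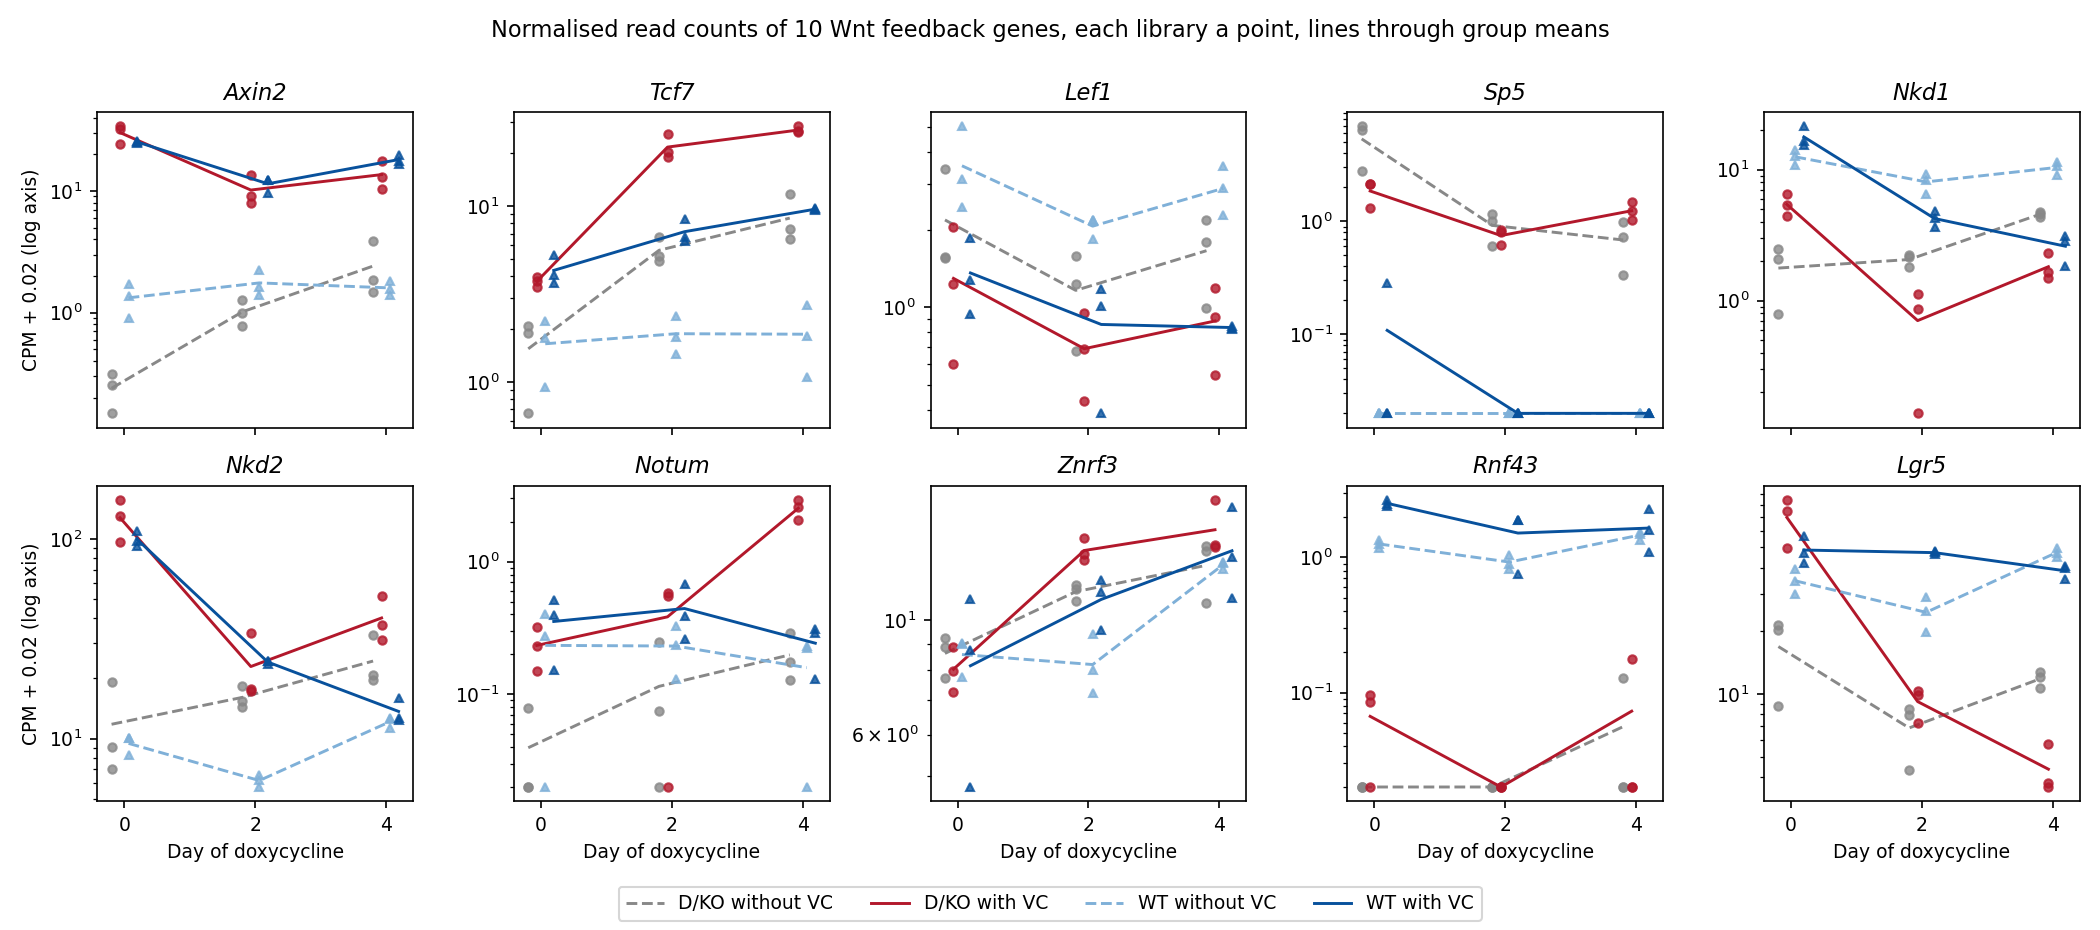
Normalised read counts (CPM + 0.02, log axis) of the 10 members are drawn against the day of doxycycline, 1 point per library and a line through each group mean, for D/KO (circles) and WT (triangles) cells with VC (solid) and without (dashed). The Axin2 libraries with VC lie between 7.87 and 33.8 CPM, above the highest library without VC at 3.88 CPM, and Sp5 in WT and Rnf43 in D/KO cells lie at or near 0.

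Tcf7 encodes a Tcf factor that binds β-catenin and also occurs as a short form without the β-catenin binding domain, and the counts do not separate these forms. At day 0 it was at 0.644, 1.88 and 2.06 CPM in D/KO cells and at 3.75, 3.46 and 3.93 CPM with VC (log2 1.26 ± 0.32, adjusted p = 0.00279). The WT cells gave much the same values, at 2.21, 1.77 and 0.919 CPM without and 4.04, 3.62 and 5.24 CPM with VC (1.4 ± 0.31, adjusted p = 0.00054). The libraries with VC lay above those without in both lines.

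The D/KO groups with VC at days 2 and 4 held the highest Tcf7 levels of the 12 groups. D/KO cells with VC held 19.1, 20.4 and 25.6 CPM at day 2 and 26.4, 28.5 and 26.6 CPM at day 4. Without VC they held 5.23, 4.87 and 6.70 CPM at day 2 and 7.38, 6.48 and 11.8 CPM at day 4, so the VC effects were 1.95 ± 0.25 and 1.67 ± 0.24. In WT cells, Tcf7 reached 9.53, 9.60 and 9.73 CPM at day 4 with VC and stayed at 2.71, 1.80 and 1.05 CPM without (2.36 ± 0.28, adjusted p = 5.05e-08), and at day 2 the effect was 1.93 ± 0.29.

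Lef1, the other Lef and Tcf family member of the list, went the opposite way in WT cells. There it was at 2.43, 3.11 and 5.0 CPM at day 0 and at 1.83, 0.921 and 1.26 CPM with VC, at 2.15, 2.16 and 1.81 CPM at day 2 and 0.368, 0.989 and 1.15 CPM with VC, and at 2.25, 3.50 and 2.87 CPM at day 4 and 0.813, 0.822 and 0.806 CPM with VC. The libraries with VC lay below those without at each day. The log2 fold changes were -1.39 ± 0.42 (adjusted p = 0.01), -1.27 ± 0.45 (adjusted p = 0.0309) and -1.81 ± 0.44 (adjusted p = 0.00197). In D/KO cells the estimates had the same sign, -0.77 ± 0.44, -0.76 ± 0.48 and -0.92 ± 0.45, but missed the threshold (adjusted p of 0.206, 0.271 and 0.109), and the libraries overlapped. A difference between the lines in the Lef1 effect was not called at any day (adjusted p of 0.534, 0.692 and 0.452). Without WT day 0 replicate 3 the adjusted p of the day 0 fall was 0.0948 and without WT day 0 plus VC replicate 2 it was 0.0583. At day 2 it was 0.17, 0.0652 or 0.0715 without VC replicate 1, replicate 1 or replicate 2. The day 4 fall was called under all 11 alternatives that tested Lef1 and set no minimum size of change.

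Sp5 encodes a zinc finger factor that Wnt signaling induces and that damps other Wnt targets. Its counts came almost wholly from the D/KO line, as WT cells of this table had 0 counts in 17 of 18 libraries and 4 counts in the other, a day 0 library with VC. D/KO cells at day 0 held 6.38, 2.76 and 6.89 CPM, and with VC 1.29, 2.11 and 2.10 CPM (log2 -1.54 ± 0.50, adjusted p = 0.0238), so that all libraries with VC lay below those without. That call was lost without D/KO day 0 replicate 1 (adjusted p = 0.0844), replicate 3 (0.119) or D/KO day 0 plus VC replicate 1 (0.107). At day 2 the D/KO values were 0.977, 0.580 and 1.14 CPM without and 0.810, 0.592 and 0.783 CPM with VC (-0.31 ± 0.56), and at day 4 they were 0.977, 0.313 and 0.701 CPM without and 1.00, 1.45 and 1.21 CPM with VC. At day 4 all libraries with VC lay above those without, and the difference was not called (0.87 ± 0.55, adjusted p = 0.235).

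Nkd1 and Nkd2 encode Naked cuticle proteins, which bind Dishevelled and restrain the signal, and the pair came apart. Nkd2 at day 0 stood at 7.02, 9.03 and 19.3 CPM in D/KO cells and at 130.0, 95.9 and 156 CPM with VC (log2 3.43 ± 0.26, adjusted p = 8.92e-13). In WT cells it went from 9.99, 8.27 and 10.1 CPM to 97.7, 109 and 91.6 CPM (3.40 ± 0.26, adjusted p = 1.86e-12). The effect thus had nearly the same size in both lines at day 0, and the difference between them was 0.03 ± 0.35 on the log2 scale.

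The Nkd2 level with VC was lower at days 2 and 4 than at day 0. D/KO cells with VC held 17.6, 17.2 and 33.9 CPM at day 2, against 14.4, 15.4 and 18.3 CPM without, and the difference was not called (0.51 ± 0.25, adjusted p = 0.134). At day 4 they held 37.2, 31.2 and 52.0 CPM against 20.7, 19.6 and 32.9 CPM (0.72 ± 0.24, adjusted p = 0.0187), with overlap between the groups. That day 4 call was lost without D/KO day 4 plus VC replicate 3 (0.49, adjusted p = 0.158), D/KO day 4 replicate 1 (0.0912) or replicate 2 (0.0962). WT cells with VC still stood apart at day 2, with 24.4, 24.4 and 23.6 CPM against 6.57, 5.70 and 6.16 CPM (1.97 ± 0.27, adjusted p = 7.66e-07). By day 4 they no longer did, with 12.3, 16.0 and 12.7 CPM against 12.5, 11.3 and 12.6 CPM (0.17 ± 0.26).

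Nkd1 rose with VC at day 0 in D/KO cells and was lower with VC at days 2 and 4 in both lines. At day 0 it was at 2.45, 2.05 and 0.766 CPM in D/KO cells and at 6.47, 5.35 and 4.42 CPM with VC (log2 1.63 ± 0.31, adjusted p = 8.61e-05), and in WT cells at 14.1, 12.6 and 10.8 CPM and at 21.3, 15.5 and 16.4 CPM with VC, where the libraries did not overlap and the difference was not called (0.51 ± 0.25, adjusted p = 0.121). The D/KO cells held 1.10, 0.118 and 0.839 CPM with VC at day 2, below 2.13, 2.20 and 1.80 CPM without (-1.55 ± 0.38, adjusted p = 0.002), and 1.48, 2.28 and 1.63 CPM with VC at day 4, below 4.72, 4.6 and 4.31 CPM (-1.34 ± 0.30, adjusted p = 0.000574). The WT cells showed the same order, at 3.62, 4.78 and 4.25 CPM with VC against 9.32, 6.52 and 8.30 CPM at day 2 (-0.93 ± 0.27, adjusted p = 0.0091), and 3.08, 2.85 and 1.83 CPM against 11.4, 10.7 and 9.05 CPM at day 4 (-2.01 ± 0.28, adjusted p = 8.71e-07). No library with VC overlapped the group without in any of these 4 falls. Each fall was called under all 11 alternatives that tested Nkd1 and set no minimum size of change. The WT fall at day 2 was smaller than the alternative minimum of 1.

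The other members act at the ligand or the receptor. Notum, a secreted enzyme that removes the lipid from Wnt ligands, was close to absent in D/KO cells at day 0, with 0, 1 and 0 counts, and had 2, 4 and 3 counts with VC, a pooled ratio of 10.4 with a 95% counting interval of 1.44 to 455 that was not called by the fit (adjusted p = 0.109). At day 4 it had 0.109, 0.157 and 0.270 CPM (2, 3 and 5 counts) in D/KO cells and 2.06, 2.90 and 2.58 CPM (39, 52 and 49 counts) with VC (log2 3.76 ± 0.77, adjusted p = 0.000202). It passed the filter only through this group with VC and so had to differ there, and in the fit of all genes without a filter the change was 3.76 with an adjusted p of 4.36e-05. Across WT cells it lay between 0 and 0.66 CPM in all 18 libraries and was called at no day, though the difference between the lines at day 4 was itself not called (3.13 ± 1.28, adjusted p = 0.13).

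Znrf3 and Rnf43 encode ubiquitin ligases that remove Frizzled receptors from the cell surface. Znrf3 ran from 4.74 to 17.0 CPM over the 36 libraries, and its 6 estimated VC effects ran from -0.10 to 0.42 with standard errors of at most 0.19. Rnf43 was absent or nearly so from D/KO cells, with at most 3 counts in any of the 18 libraries, so a group of 3 libraries with no count allows up to 0.0605 CPM at day 0 (3 counts over the group). WT cells expressed it, with 1.16, 1.23 and 1.33 CPM at day 0 and 2.46, 2.64 and 2.39 CPM with VC, and although the groups did not overlap the difference was not called (1.01 ± 0.49, adjusted p = 0.123).

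Lgr5, a receptor for R-spondins that potentiates Wnt signals and marks several stem cell populations, changed direction over the days in D/KO cells. At day 0 it went from 20.2, 21.4 and 8.78 CPM to 74.6, 84.0 and 49.6 CPM with VC (log2 2.05 ± 0.23, adjusted p = 5.64e-09). At day 2 it was at 7.87, 8.41 and 4.31 CPM and at 9.89, 10.4 and 7.27 CPM with VC (0.42 ± 0.25, adjusted p = 0.236), and at day 4 it was at 12.6, 12 and 10.7 CPM and only 5.76, 3.73 and 3.58 CPM with VC (-1.43 ± 0.26, adjusted p = 3.06e-05). The libraries with VC lay above those without at day 0, overlapped them at day 2 and lay below them at day 4. WT cells varied less. At day 0 they held 34.5, 30.1 and 39.2 CPM against 42.1, 56.6 and 46.8 CPM with VC, without overlap (0.49 ± 0.21, adjusted p = 0.0838). At day 2 they held 28.9, 19.6 and 24.9 CPM against 46.2, 47.4 and 47.8 CPM with VC (0.95 ± 0.22, adjusted p = 0.00115). At day 4 they held 45.0, 47.1 and 49.7 CPM against 40.7, 35.2 and 39.9 CPM with VC (-0.29 ± 0.21, adjusted p = 0.377). There all WT libraries with VC lay below those without, though the difference was not called.

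Whether VC acted differently in the 2 lines was tested as the difference between their log2 effects. At day 0 the effect was larger in D/KO than in WT cells for Axin2 by 2.78 ± 0.54 (adjusted p = 0.000428), for Lgr5 by 1.56 ± 0.31 (adjusted p = 0.000563) and for Nkd1 by 1.13 ± 0.39 (adjusted p = 0.0477), where 15.3% of all genes were called. Sp5 was called as lower, which made 4 of the 10 members with it and 3 without it, but it passed the filter only through the D/KO cells. For Axin2 the mean levels with VC were 30.1 and 25.2 CPM in the D/KO and WT lines, and those without VC were 0.219 and 1.30 CPM. The fitted Sp5 difference of -5.24 ± 1.77 (adjusted p = 0.046) sets the D/KO fall against WT groups with 4 counts in 1 library and 0 in the other 5, and without that library (WT day 0 plus VC replicate 3) it was -1.54 with an adjusted p of 0.9999. It was lost in 9 of its alternatives. The Nkd1 difference was lost in 9 of its alternatives, among them without D/KO day 0 replicate 3 (0.76, adjusted p = 0.208), while those of Axin2 and Lgr5 were called under all of theirs.

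At day 2 only Nkd2 differed between the lines, with a lower effect in D/KO cells (-1.46 ± 0.37, adjusted p = 0.00724), against 10.9% of all genes. At day 4 only Lgr5 did (-1.14 ± 0.33, adjusted p = 0.024), against 9.23% of all genes, and that call was lost without any 1 of 4 libraries (D/KO day 4 plus VC replicates 2 and 3, D/KO day 4 replicate 1 and WT day 4 replicate 1, adjusted p from 0.0518 to 0.0758). The Axin2 effect was no longer called as different, with an estimate of -1.01 ± 0.37 at day 4 (adjusted p = 0.0852). The VC effects of Tcf7 differed by -0.14 ± 0.45, 0.02 ± 0.45 and -0.70 ± 0.37 at the 3 days and were not called.

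Between day 0 and day 4 the VC effect changed for 5 members in D/KO cells, where 26.9% of all genes did so. It fell by 4.54 ± 0.49 on the log2 scale for Axin2, by 3.48 ± 0.34 for Lgr5, by 2.97 ± 0.43 for Nkd1 and by 2.71 ± 0.35 for Nkd2, and it went up by 2.42 ± 0.74 for Sp5 (adjusted p = 0.0168, and 0.0579 without D/KO day 0 replicate 3). In WT cells it fell for Nkd1 by 2.51 ± 0.37 and for Nkd2 by 3.23 ± 0.36, 2 of 10 members where 15.3% of all genes changed. The Axin2 effect in WT cells differed by -0.75 ± 0.39 and was not called (adjusted p = 0.214).

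The time course without VC follows the members in the absence of CHIR99021. Doxycycline and time in culture changed together, as no culture without doxycycline was sampled at day 2 or 4, so their effects cannot be told apart. At day 2 in D/KO cells, Axin2 rose by 2.14 ± 0.52 and Tcf7 by 1.86 ± 0.30 on the log2 scale, and Sp5 (-2.56 ± 0.53) and Lgr5 (-1.29 ± 0.24) fell, so 4 of 10 members changed against 27.4% of all genes. At day 4, Axin2 was higher than at day 0 by 3.39 ± 0.44, Tcf7 by 2.46 ± 0.30, Nkd1 by 1.38 ± 0.31, Nkd2 by 1.05 ± 0.25 and Znrf3 by 0.57 ± 0.18, and Sp5 was lower (-3.0 ± 0.54), so 6 of 10 changed against 37% of all genes. The Znrf3 call was lost without D/KO day 0 replicate 3 (0.49, adjusted p = 0.063). Axin2 thus rose from a mean of 0.219 to 2.39 CPM in D/KO cells that never received a Gsk3 inhibitor, which was still below every group with VC.

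Without VC, few members moved in the WT line. None of the 10 was called at day 2 by edgeR, where 10.6% of all genes were, with 3 at an unadjusted p under 0.05. Without a filter edgeR called 2 (Nkd2 and Lgr5). With only the groups compared it called 2 (Nkd1 and Nkd2) of the 8 members then tested, and DESeq2 called 1, Nkd1. The shares of all genes called in these other fits are not given here. At day 4 only Znrf3 was called (0.58 ± 0.18, adjusted p = 0.0171), against 24.5% of all genes, and this was lost without WT day 0 replicate 2 (0.52, adjusted p = 0.0782). Axin2 went from 1.30 ± 0.40 to 1.73 ± 0.42 and 1.58 ± 0.21 CPM (SD, n = 3), with overlap between the days.

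Among the groups with VC, several members were lower at days 2 and 4 than at day 0, and here doxycycline, time in culture and time in VC cannot be told apart. In D/KO cells at day 2, 5 members fell: Nkd1 by 2.96 ± 0.35, Lgr5 by 2.92 ± 0.24, Nkd2 by 2.47 ± 0.25, Axin2 by 1.57 ± 0.22 and Sp5 by 1.32 ± 0.55 on the log2 scale, the last lost in 7 alternatives, among them without D/KO day 0 plus VC replicate 2 (adjusted p = 0.114). Tcf7 (2.54 ± 0.27) and Znrf3 (0.76 ± 0.19) rose, which made 7 of 10 called against 47.4% of all genes. At day 4, again 7 were called, or 6 without Notum, which was tested only through that group, against 54.1%: Lgr5 (-3.99 ± 0.25), Nkd2 (-1.67 ± 0.24), Nkd1 (-1.59 ± 0.30) and Axin2 (-1.15 ± 0.22) fell, and Notum (3.53 ± 0.78), Tcf7 (2.87 ± 0.27) and Znrf3 (0.90 ± 0.18) rose. In WT cells with VC, Nkd1 (-2.07 ± 0.27), Nkd2 (-2.04 ± 0.24) and Axin2 (-1.14 ± 0.22) fell and Tcf7 rose (0.73 ± 0.27) at day 2, 4 of 10 against 27.5% of all genes, and the Tcf7 call was lost without any 1 of 4 libraries, for example WT day 2 plus VC replicate 1 (0.60, adjusted p = 0.152). At day 4, Nkd1 (-2.78 ± 0.28) and Nkd2 (-2.86 ± 0.26) fell and Tcf7 (1.16 ± 0.26) and Znrf3 (0.74 ± 0.18) rose, 4 of 10 against 44.7%. These comparisons share their day 0 groups, so their values are given side by side only.

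Levels of different genes were compared per length, as CPM divided by the gene length in kilobases that the tables give (RPKM). At day 0 in D/KO cells the highest members were Sp5 (2.54 ± 1.07 RPKM, SD), Nkd2 (2.44 ± 1.36) and Lgr5 (1.64 ± 0.68), with Axin2 at 0.0398 ± 0.015. With VC, Nkd2 led at 26.4 ± 6.28 RPKM, followed by Lgr5 (6.76 ± 1.73) and Axin2 (5.46 ± 0.95). By day 4 with VC, Tcf7 (8.99 ± 0.38) and Nkd2 (8.32 ± 2.21) led, Axin2 stood at 2.47 ± 0.65, and Lgr5 at 0.424 ± 0.12. In WT cells at day 0, Lgr5 (3.37 ± 0.45 RPKM) led over Nkd1 (2.74 ± 0.36) and Nkd2 (1.96 ± 0.21), and with VC Nkd2 led at 20.6 ± 1.83. At day 4 with VC the WT members Lgr5 (3.76 ± 0.29), Axin2 (3.28 ± 0.29), Tcf7 (3.19 ± 0.035) and Nkd2 (2.83 ± 0.42) lay close together.

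The inhibitor table shows the members in D/KO cells without cassette, doxycycline or CHIR99021, to ask what blocking TGFb or BMP receptors did to them. The 3 TGFb receptor inhibitors raised most members. A83-01 raised 8 of the 9 members that passed the filter (Rnf43 did not, with 1 to 5 counts in every D/KO library), where 32.6% of all genes were called, Repsox raised 7 (25.2%) and Vactosertib 6 (22.1%). None was lowered by these 3. Markers of cell types moved with these groups. The 10 fibroblast markers summed to between 82867 and 89784 CPM in the controls and to between 41675 and 55311 CPM with the 3 TGFb receptor inhibitors. The 6 Schwann cell and melanocyte markers summed to between 8.08 and 10.8 CPM in the controls, to between 15.5 and 20.6 CPM with Repsox and Vactosertib, to between 12.8 and 16.1 CPM with DMH-1 and to between 33.2 and 40.8 CPM with A83-01, although the melanocyte markers Tyr and Dct were at 0 in 23 and 18 of the 24 libraries of the table. The 5 endothelial markers summed to between 290.2 and 331 CPM in the controls and to between 141 and 181 CPM with A83-01, and overlapped the controls with Repsox and Vactosertib. The 9 keratinocyte markers had a higher sum with A83-01 (12.4 to 13.8 against 3.96 to 6.25 CPM), without overlap. Krt1, Krt5, Krt14, Krt15, Cdh1 and Epcam each had at most 0.349 CPM in any library. The 6 immune markers had a higher sum with A83-01 (15.6 to 22.9 against 10.1 to 14.3 CPM) and Repsox (15.9 to 28.5 CPM), without overlap. The part of these shifts in the results was not tested. DMH-1 raised 2, Lgr5 and Sp5, and lowered 1, Nkd2, against 9.75% of all genes. The doses differed (0.1 µM for Repsox and Vactosertib, 1 µM for A83-01 and DMH-1), all 4 comparisons share the same 3 control libraries, and differences between the compounds were not tested.

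Lgr5 rose with all 4 compounds. It was at 7.07, 8.39 and 8.08 CPM in control cells and at 60.0, 41.7 and 55.6 CPM with Repsox (log2 2.74 ± 0.20), 40, 53.1 and 33.3 CPM with Vactosertib (2.44 ± 0.20), 47.9, 55.4 and 52.2 CPM with A83-01 (2.72 ± 0.20) and 26.3, 25.6 and 20.8 CPM with DMH-1 (1.63 ± 0.20, adjusted p = 3.74e-05). All 12 treated libraries lay above the controls. Nkd1 rose from 2.13, 2.54 and 2.36 CPM to 12.4, 10.1 and 12 CPM with Repsox (2.29 ± 0.14), 11.1, 12.7 and 11.6 CPM with Vactosertib (2.34 ± 0.14) and 16.7, 14.6 and 17.5 CPM with A83-01 (2.80 ± 0.14). With DMH-1 it was at 2.69, 2.14 and 1.94 CPM (-0.04 ± 0.15), which overlapped the controls.

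Sp5, which VC lowered in D/KO cells at day 0, rose from 1.4, 1.02 and 1.95 CPM to 10.7, 11.6 and 10.1 CPM with Repsox (log2 2.89 ± 0.22), 6.27, 5.63 and 6.53 CPM with Vactosertib (2.09 ± 0.22) and 5.0, 6.53 and 5.14 CPM with A83-01 (1.94 ± 0.22). With DMH-1 it was at 3.01, 1.79 and 2.44 CPM (0.74 ± 0.23, adjusted p = 0.049), a call that was lost in 8 alternatives, for example without D/KO DMH-1 replicate 1 (adjusted p = 0.241). Notum had 0 counts in all 3 control libraries and 25, 37 and 18 counts with Repsox, 4, 11 and 14 with Vactosertib and 35, 21 and 27 with A83-01. Set against 3 counts over the control group, its pooled level was 20.2-fold, 8.84-fold and 21.3-fold higher, with counting error in the treated groups left out. DMH-1 gave 2, 3 and 0 counts and was not called (adjusted p = 0.21).

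Axin2, which had the largest estimated rise with VC at day 0, was called with 2 of the inhibitors. From 0.383, 0.536 and 0.413 CPM it went to 1.81, 1.91 and 2.0 CPM with A83-01 (log2 2.09 ± 0.44, adjusted p = 0.00143) and to 1.68, 0.597 and 1.59 CPM with Repsox (1.53 ± 0.45, adjusted p = 0.0191), the latter lost without any 1 of 4 libraries, for example Repsox replicate 1 (1.30, adjusted p = 0.0695). With Vactosertib it was at 0.427, 1.4 and 1.2 CPM (1.20 ± 0.46, adjusted p = 0.0779). Nkd2 rose from 10.6, 11.9 and 10.1 CPM by 0.78 ± 0.14 with Repsox, 0.83 ± 0.14 with Vactosertib and 1.08 ± 0.14 with A83-01, and fell with DMH-1 to 6.23, 5.14 and 4.48 CPM (-1.03 ± 0.15, adjusted p = 0.000203). Lef1, which VC lowered in WT cells, rose from 4.30, 4.14 and 3.89 CPM by 0.83 ± 0.14, 0.71 ± 0.15 and 1.05 ± 0.14 with Repsox, Vactosertib and A83-01. With DMH-1 it ran from 2.98 to 3.48 CPM, below all control libraries, and was not called. Tcf7 was called with A83-01 only (1.02 ± 0.31, adjusted p = 0.0185, lost without A83-01 replicate 1 or 2 or control replicate 1 or 3, adjusted p from 0.055 to 0.099), and Znrf3 with none (0.14 to 0.37).

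**Figure D3:**
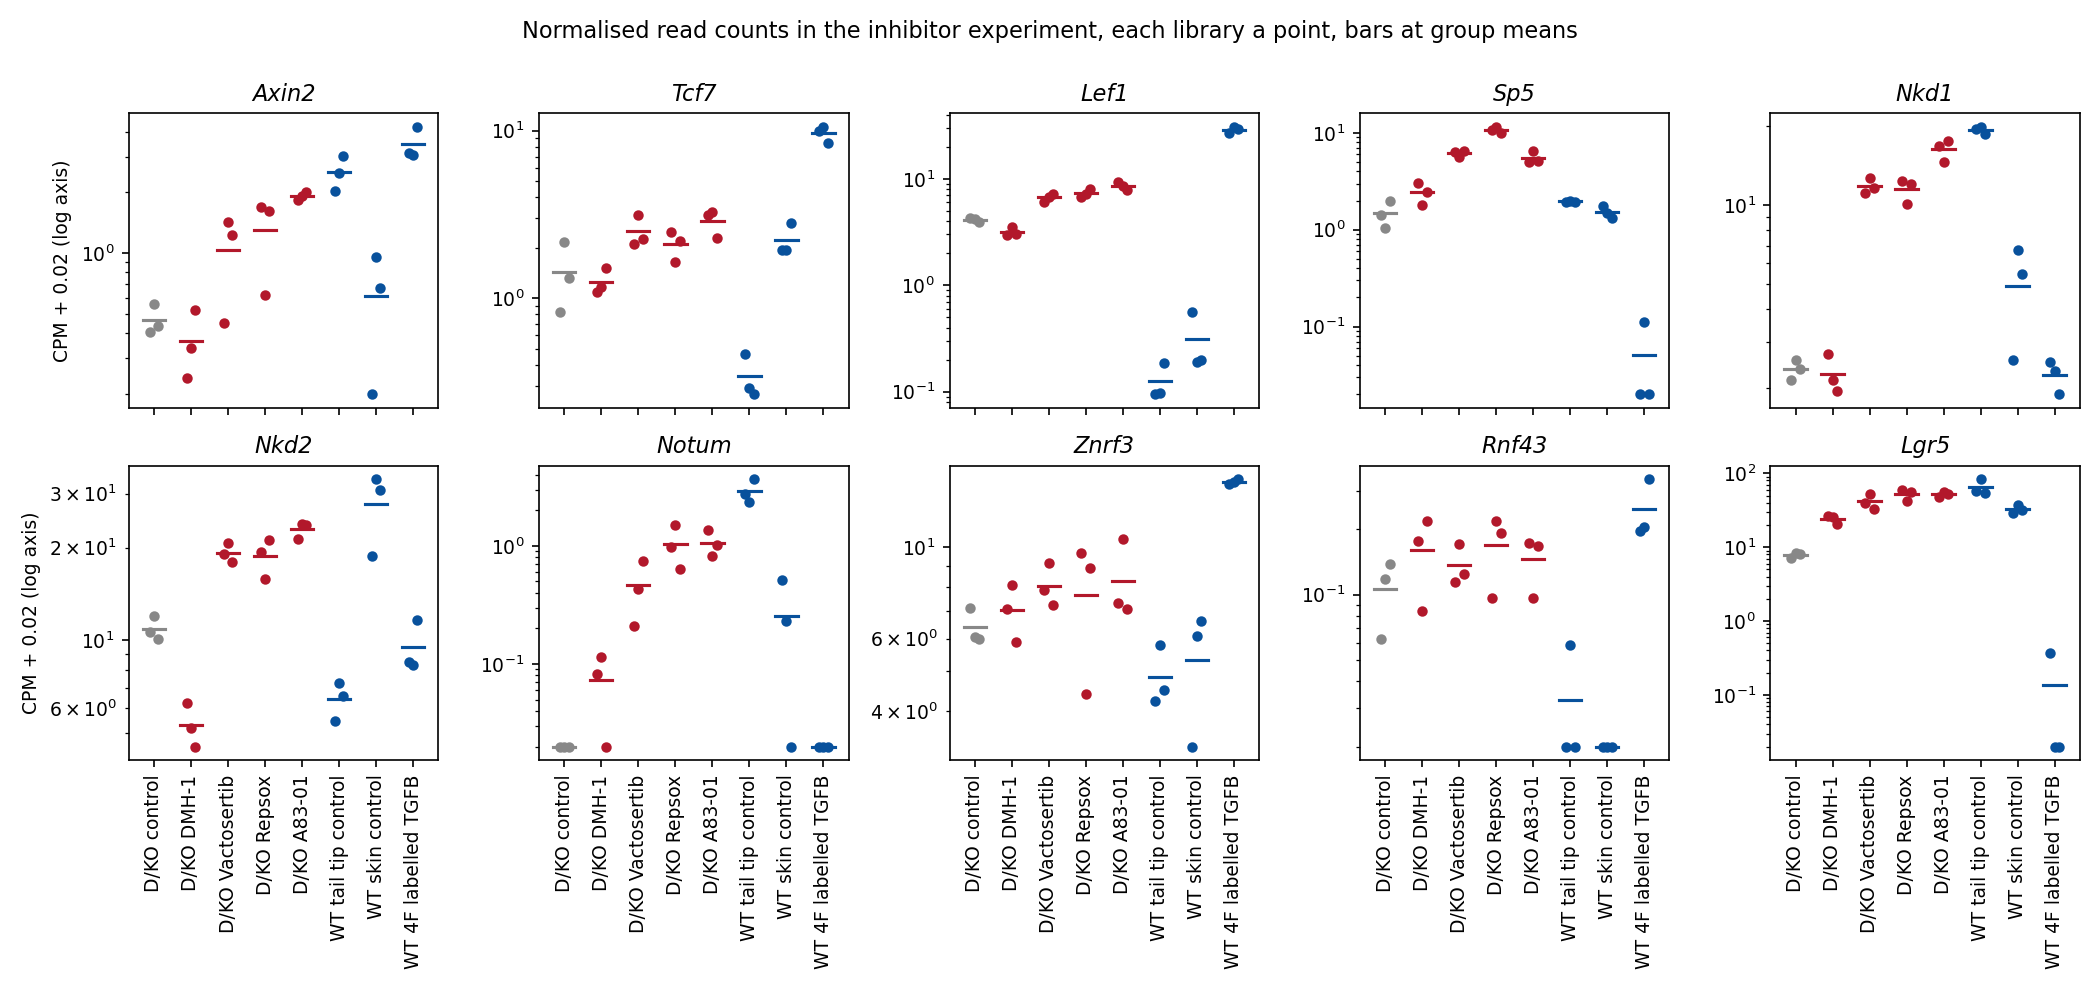
Normalised read counts (CPM + 0.02, log axis) of the 10 members are drawn for the 8 groups of the inhibitor table, 1 point per library and a bar at each group mean, with D/KO controls in grey, treated D/KO cells in red and WT cells in blue. The 3 TGFb receptor inhibitors stand above the D/KO controls for Lgr5, Nkd1, Nkd2, Sp5, Lef1 and Notum, and the WT 4F libraries are the highest for Lef1 and the lowest for Lgr5.

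The WT groups of this table were compared with no other group by a test, and their members differed widely. Tail tip and skin control cells held 65.4 ± 15.9 and 32.8 ± 4.00 CPM of Lgr5 (SD, n = 3), 19.3 ± 0.60 and 4.90 ± 2.14 CPM of Nkd1, 6.40 ± 0.89 and 27.6 ± 7.80 CPM of Nkd2, 2.92 ± 0.68 and 0.235 ± 0.25 CPM of Notum and 0.322 ± 0.11 and 2.21 ± 0.50 CPM of Tcf7. Lef1 was nearly absent from both, at 0.106 ± 0.051 and 0.295 ± 0.21 CPM, against 4.11 ± 0.20 CPM in the libraries labelled D/KO controls. The WT 4F libraries labelled TGFB held 29.1 ± 2.12 CPM of Lef1, 9.65 ± 1.06 CPM of Tcf7 and 14.4 ± 0.20 CPM of Znrf3 and 3.46 ± 0.66 CPM of Axin2, the highest group means of the table for these 4. Beside the WT tail tip controls, these libraries stood apart in marker sums. The sums were 132 to 137 against 14.9 to 18.2 CPM for the keratinocyte markers and 1.20 to 1.88 against 73.3 to 91.1 CPM for the endothelial markers. The WT 4F libraries had 8, 0 and 0 counts of Lgr5, none of Notum and 0, 2 and 0 of Sp5. Cells with the same genotype, sex and age labels in the reprogramming table held 34.6 ± 4.57 CPM of Lgr5 and 3.51 ± 1.33 CPM of Lef1 at day 0, in a table that was scaled separately.

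The other genes of the pathway were taken from 4 lists of receptors and co-receptors, cytoplasmic components, nuclear factors and further targets. Among 13 receptors tested of 14 listed, 2, 1 and 1 rose and 4, 5 and 6 fell with VC in D/KO cells at days 0, 2 and 4, and 5, 2 and 0 rose and 4, 3 and 4 fell in WT cells. Fzd4, a Frizzled receptor, fell in all 6 comparisons, from -2.67 ± 0.27 in WT cells at day 0 to -0.95 ± 0.18 in D/KO cells at day 4, and so did the R-spondin receptor Lgr4, from -1.93 ± 0.14 in WT cells at day 0 to -0.63 ± 0.13 in WT cells at day 2. Its relative Lgr6 fell in D/KO cells at day 0 (-1.18 ± 0.29) and rose at day 2 (1.75 ± 0.23) and day 4 (1.57 ± 0.23). Fzd1 rose by 0.92 ± 0.10 in WT cells at day 0, and Fzd9 was lower in WT cells at day 2 (-2.63 ± 0.99, adjusted p = 0.0446).

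The shares of all genes called in these comparisons, 10.4 to 17.7% in a direction, apply to the lists as well. Of 12 cytoplasmic components tested, at most 1 rose and 1 to 3 fell in each VC comparison, and the list medians lay between -0.13 and 0.10. Gsk3a and Gsk3b, the kinases that CHIR99021 inhibits, were called in none of the 6, nor were Axin1 and Apc. Ctnnb1, which encodes β-catenin, fell in D/KO cells at day 0 (-0.41 ± 0.08) and rose in WT cells at days 0 and 2 (0.26 ± 0.08 and 0.34 ± 0.08). Dvl2 rose in D/KO cells at day 0 (0.52 ± 0.11), Dvl1 fell in WT cells at day 2 (-0.53 ± 0.12) and Apc2 fell in D/KO cells at day 2 (-2.05 ± 0.53). Of the 12 nuclear factors, 0 to 1 rose and 2 to 7 fell, among them Pygo1, a coactivator of β-catenin (-2.0 ± 0.21 in D/KO cells at day 4), and the Groucho family corepressor Tle2 (-1.38 ± 0.18 in WT cells at day 0), whereas its relative Tle4 (1.03 ± 0.18) rose in D/KO cells at day 4 and Bcl9l, another coactivator, in WT cells at day 2 (0.38 ± 0.12).

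The further targets were mixed as well. Of 15 listed, 9 passed the filter, and 3, 4 and 2 rose and 3, 1 and 2 fell in D/KO cells at days 0, 2 and 4, and 2, 5 and 4 rose and 1, 0 and 0 fell in WT cells. Apcdd1, a membrane inhibitor of Wnt signaling, rose in all 6 comparisons, by 2.55 ± 0.12, 1.91 ± 0.12 and 0.78 ± 0.11 in D/KO cells at days 0, 2 and 4 and by 2.12 ± 0.12, 1.71 ± 0.12 and 2.09 ± 0.12 in WT cells. Tnfrsf19 rose at day 0 in both lines (3.56 ± 0.89 and 2.03 ± 0.77). Jag1, a Notch ligand, fell in D/KO cells at day 0 (-2.04 ± 0.16), and Tnfrsf11b, which encodes osteoprotegerin, fell in D/KO cells at day 4 (-1.58 ± 0.11). List medians beside these ran from -0.56 to 0.50 over the 4 lists, and the median of all genes from -0.004 to 0.03.

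**Figure D4:**
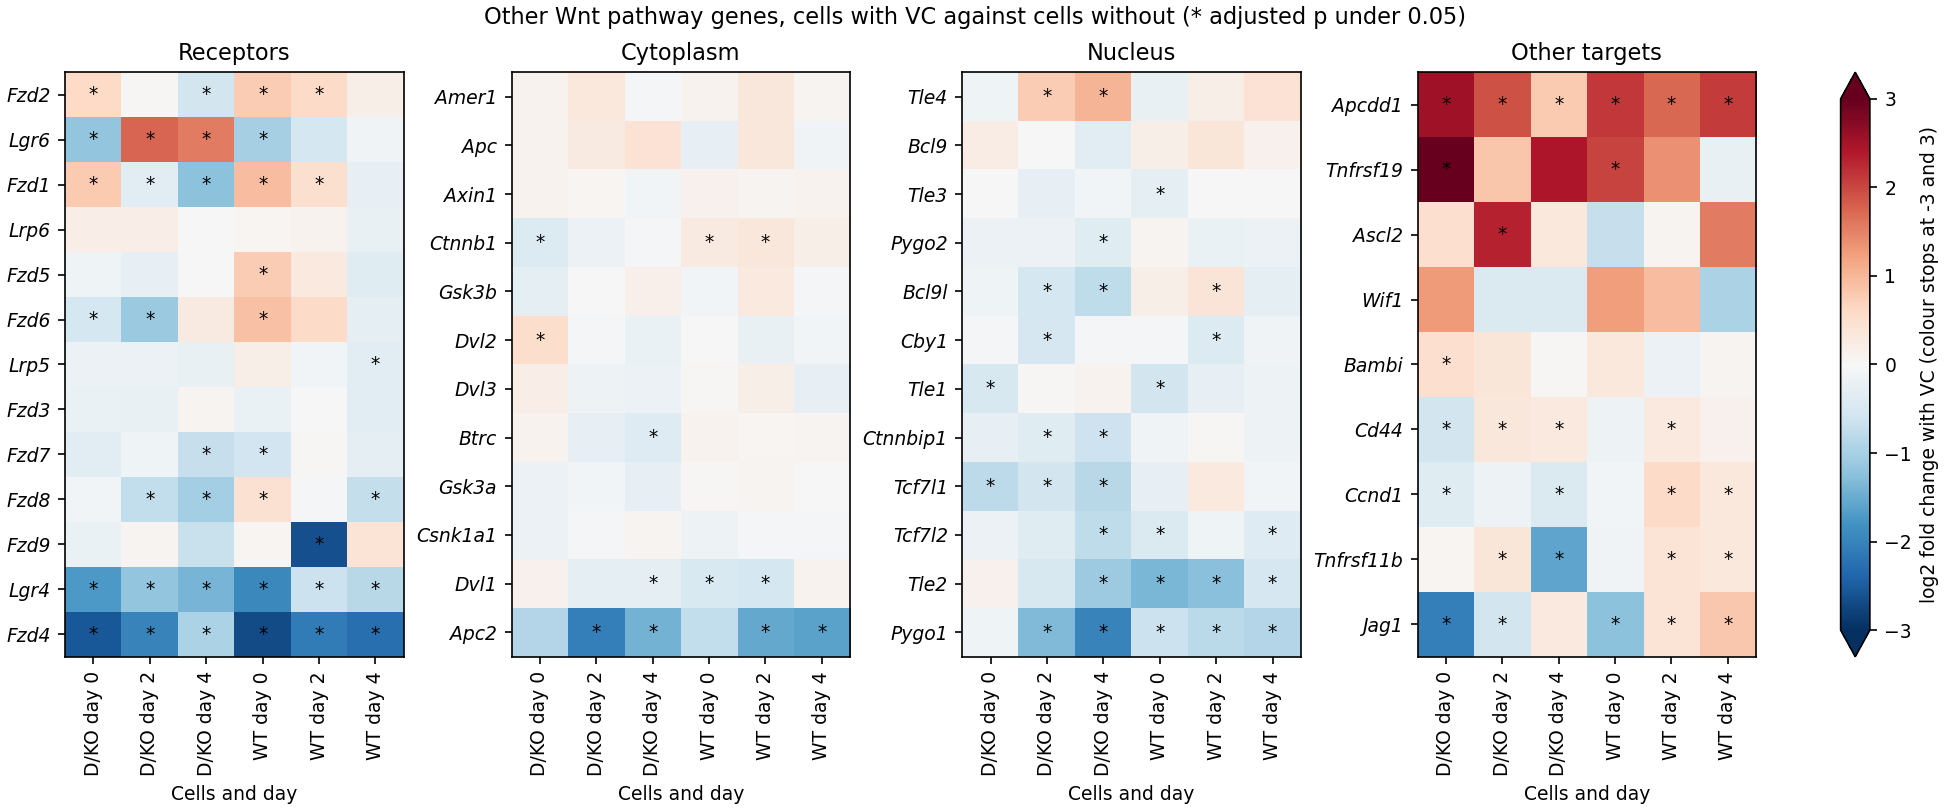
Each cell shows the log2 fold change with VC of 1 pathway gene outside the 10 members (rows) in 1 line at 1 day (columns), in 4 panels by role, with red for higher and blue for lower, colour stopping at -3 and 3, and a star where the adjusted p was under 0.05. Apcdd1 is red and Fzd4 and Lgr4 are blue in all 6 columns, and the cytoplasmic panel is close to white apart from Apc2.

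The genes whose level was most like that of Axin2 over the 12 reprogramming groups, by Pearson correlation of group mean log2 CPM, were Cxcl14 (r = 0.94), Slco5a1 (0.92), Efs (0.92), Ackr4 (0.91) and Slc48a1 (0.91). Among the members, Nkd2 came closest (r = 0.74, rank 182 of all genes tested), followed by Notum (0.60) and Tcf7 (0.59), and Lef1 was the most opposed (-0.66). These are descriptions over 12 group means that share their day 0 and VC structure.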

How the data were processed

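RNA was sequenced from mouse tail tip and skin fibroblasts as 150 bp paired-end reads on an Illumina NovaSeq instrument. The authors trimmed the reads with Trim Galore, aligned them to GRCm39 with HISAT2 and counted them per gene with featureCounts, and deposited unnormalised counts. Versions and the strand setting were not given in the sources used here. The 36 reprogramming libraries and 18 D/KO and WT tail tip libraries of the inhibitor table were each fitted in 1 model with edgeR 4.0.16 (R 4.3.3), using TMM scaling, filterByExpr (minimum count 10, minimum total 15) and the two-sided quasi-likelihood F-test, with Benjamini-Hochberg adjustment over all genes tested in each contrast. Normalised read counts are given as CPM, the rate of counts in the TMM-scaled library total computed by edgeR. Intervals and floors (3 counts over a group) cover counting error only. The variance between libraries of 1 group was at least 3.25 times that of counting alone, so none was merged as a repeat. DESeq2 1.42.0 and other filters, scalings and left-out libraries were alternatives, and the scripts were tested on simulated data. All 10 members are named in each main comparison, as are, for each of 4 further pathway lists, the 2 largest called rises and falls with VC, other genes of the lists being named after their values were seen, and the 5 genes most correlated with Axin2. The members and lists were chosen with earlier results of these data known. Replicates were numbered in the order of the samples.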

Additional observations from a re-analysis of the deposited data

Results flagged for a closer look

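For 5 members, the log2 effect of VC differed between days or between lines in the test of that difference itself. From day 0 to day 4 in D/KO cells it changed by -4.54 for Axin2 (adjusted p = 5.23e-09), -3.48 for Lgr5 (5.75e-10), -2.97 for Nkd1 (1.56e-06), -2.71 for Nkd2 (1.8e-07) and 2.42 for Sp5 (0.0168). In WT cells it changed by -2.51 for Nkd1 (6.65e-06) and -3.23 for Nkd2 (3.52e-08). Set against WT cells, the effect in D/KO cells differed at day 0 by 2.78 for Axin2 (adjusted p = 0.000428), 1.56 for Lgr5 (0.000563) and 1.13 for Nkd1 (0.0477), at day 2 by -1.46 for Nkd2 (0.00724) and at day 4 by -1.14 for Lgr5 (0.024). The fitted Sp5 difference between the lines at day 0, -5.24 (0.046), cannot be read as a difference between the lines, since Sp5 passed the filter only through the D/KO cells, the WT groups had 4 counts in 1 library and 0 in the other 5, and without that library it was -1.54 (adjusted p = 0.9999). All p-values are from edgeR over all genes tested. Groups of 3 libraries were not searched for single libraries that stand apart.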

How the results depend on the processing

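Of 99 called values of single members, 84 kept their call under all their alternatives and 15 lost it under at least 1, in 64 of 1243 values, and none changed direction. This tally leaves out the minimum of 1 for the size of the log2 fold change and every setting in which the member was not tested. No paired analysis was possible because the labels number the libraries through each table, so that no number is shared between groups. Asking for at least 10 counts in every sample left 4 reprogramming members and 5 in the inhibitor data, so fewer could be called: with VC in D/KO cells 3 instead of 5 were higher and 0 instead of 1 lower at day 0, 1 instead of 2 and 0 instead of 1 at day 2, and 2 instead of 4 and 1 instead of 2 at day 4, and in WT cells 0 instead of 1 were lower at day 0, 0 instead of 2 at day 2, and at day 4 1 instead of 2 were higher and 0 instead of 2 lower. Under the same filter A83-01 gave 4 instead of 8 and Repsox 4 instead of 7, the D/KO time course 2 instead of 4 and 3 instead of 6 without VC and 4 instead of 7 at both days with VC, WT day 2 with VC 2 instead of 4, the change of the VC effect from day 0 to day 4 2 instead of 5 (D/KO) and 1 instead of 2 (WT), and the difference between the lines at day 0 1 instead of 4. Fitting only the groups compared tested 8 members in the WT comparisons given here and 9 for the difference between the lines at day 0. It gave 6 instead of 3 higher in WT cells at day 0 and 2 instead of 4 for that difference. For WT days 2 and 4 without VC it gave 2 instead of 0 and 3 instead of 1, and the cause was not tested. No filter gave 2 instead of 1 for the difference between the lines at day 4, 2 instead of 0 for WT day 2 and 2 instead of 1 for WT day 4, and DESeq2 gave 1 instead of 0 for WT day 2, again with the cause not tested. A minimum of 1 for the size of the log2 fold change gave 1 instead of 2 lower with VC in WT cells at day 2 and 0 instead of 1 for WT day 4.

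When single libraries were left out, the members lower with VC at day 0 numbered 0 to 1 in D/KO cells (0 without day 0 replicate 1 or 3 or day 0 plus VC replicate 1) and 0 to 1 in WT cells (0 without day 0 replicate 3 or day 0 plus VC replicate 2), and at day 2 in WT cells 1 to 2 (1 without day 2 replicate 1 or 2 or day 2 plus VC replicate 1). The members that differed between the lines numbered 2 to 4 at day 0 (2 without D/KO day 0 replicate 3, D/KO day 0 plus VC replicate 1, WT day 0 plus VC replicate 3 or any WT day 0 library) and 0 to 1 at day 4 (0 without D/KO day 4 plus VC replicate 2 or WT day 4 replicate 1), and those changed at WT day 4 without VC 0 to 1 (0 without WT day 0 replicate 2). Scaling by library totals alone put the median log2 fold change of all genes at -0.18 and -0.29 for VC at day 0 in D/KO and WT cells (-0.004 and 0 with TMM) and at up to 0.377 over the days (D/KO day 4 with VC, 0.0128 with TMM), and of the member calls only the Sp5 fall in D/KO cells at day 2 with VC was lost with it. Sp5, Notum and Rnf43 are limited by their low counts.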

Other observations

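Within the 6 D/KO groups of the reprogramming table, the library with the highest number had the highest Nkd2 level in 6 of 6, the lowest Lgr5 level in 6 of 6 and the highest Tcf7 level in 5 of 6 groups, whereas in the 6 WT groups these counts were 2, 0 and 2. The numbers are given in the order of the samples, and no label says that they mark a shared animal or day. No fit took this order into account, so its part in the D/KO calls was not tested.

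Over the 12 group means of log2 CPM, Pearson correlations between members ran from r = -0.91 (Sp5, with 0 to 4 counts per WT library, and Rnf43, with 0 to 3 counts per D/KO library) to 0.74 (Axin2 and Nkd2), with -0.86 between Tcf7 and Lef1. These are descriptions over groups that share line, day and treatment.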
